A study of Mus musculus with 8 samples.

Results

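The genes described here encode the kidney's conjugating enzymes of 3 families, the UDP-glycosyltransferases (UGT), the glutathione S-transferases (GST) and the cytosolic sulfotransferases (SULT). They were taken as every gene whose platform symbol begins with Ugt1, Ugt2, Ugt3, Gst or Sult and that has a probe set naming it alone. That gave 46 of the 19936 genes read by the array, of which 10 were UGT, 20 GST and 16 SULT genes. Gstm3 had 2 such probe sets, and the brighter stood for the gene. Another 12 probe sets named several genes at once, among them the shared probe set of the Ugt1a genes and 4 for Gsta1 and Gsta2, and are described apart.

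Conjugation makes drugs, hormones and breakdown products more soluble, so that they can be exported into urine or bile. UGT enzymes transfer a sugar, most often glucuronic acid from UDP-glucuronate, GST enzymes join glutathione to reactive compounds, and SULT enzymes transfer sulfate from the activated donor PAPS. In the kidney much of this work is done by proximal tubule cells, which also hold the transporters for the conjugates.

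Whole-kidney RNA came from 4 female mice labelled mutant, of genotype Pax8-rtTA;LC-1;Vhl-floxed, and from 4 female littermates labelled control, whose alleles the labels do not give. In Pax8-rtTA;LC-1 mice doxycycline switches on Cre along the tubule epithelium, so that other kidney cells are not targeted. All mice were of a mixed C57BL/6 and SV127 background, received doxycycline (0.2 mg/ml in 5% sucrose) in drinking water for 2 weeks from 3 weeks of age, then 1 week of plain water, and were sampled at 6 weeks. Each array was 1 mouse.

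The readout went against the labels. Vhl, the floxed gene, read 8.25, 8.32, 8.46 and 8.33 on the arrays labelled mutant, against 8.01, 7.99, 7.96 and 8.22 on those labelled control (log2 units), with every array labelled mutant above every array labelled control (limma adjusted p = 0.0387, and 0.0558 with the replicate block); which part of the transcript its probe set covers is not given in the sources used here. Of 10 genes that hypoxia-inducible factor (HIF) activates, 9 fell in the arrays labelled mutant (mean of the 10 genes 10.01 to 10.13, against 11.35 to 11.65 in those labelled control), where loss of Vhl would stabilise HIF. The groups are therefore called by their labels, and no difference below is given as a direction of Vhl loss. The arrays had medians of 7.55 to 7.58 on the log2 scale, and their number limits the precision of every value.

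Every difference is the mean log2 value of the 4 arrays labelled mutant minus that of the 4 labelled control, tested with limma over all 19936 genes and called at a Benjamini-Hochberg adjusted p under 0.05. Among the 46 conjugating enzyme genes 7 rose and 1 fell in the arrays labelled mutant, which is 17.4% called, against 7.23% of all genes. For rises alone the share was 15.2% of the 46 genes, against 2.59% of all genes. The median difference was 0.39 for the UGT genes, 0.13 for the GST genes and 0.00 for the SULT genes, beside 0.03 over all genes. The difference was positive for 9 of 10 UGT, 17 of 20 GST and 8 of 16 SULT genes, and for 58.1% of all genes. The UGT median was 0.21 with mutant array 1 left out and 0.17 with mutant array 2 left out as well.

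**Figure D1:**
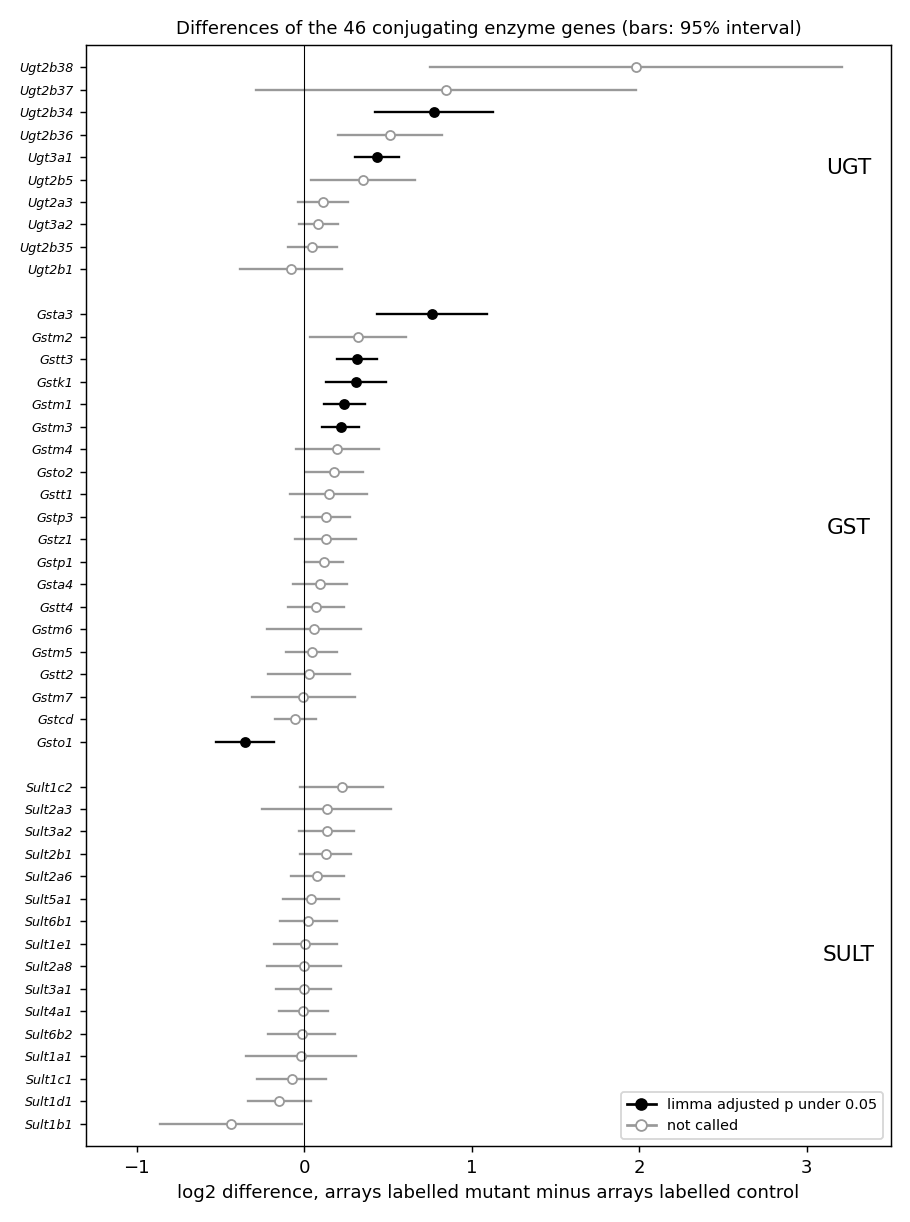
Log2 difference (arrays labelled mutant minus arrays labelled control) of each of the 46 genes with its 95% interval, by family. Filled black points passed the limma test; Ugt2b38 has the highest difference (1.98) and one of the widest intervals (0.75 to 3.21), and the SULT genes lie around 0.

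Among the UGT genes, Ugt3a1 and Ugt2b34 rose. Ugt3a1, whose human counterpart transfers N-acetylglucosamine, read 12.57, 12.42, 12.57 and 12.53 in the arrays labelled mutant, against 12.09, 11.99, 12.10 and 12.18 in those labelled control. All 4 mutant arrays lay above all 4 control arrays, and the gene was 1.35-fold higher (log2 difference 0.43, SE 0.060, limma adjusted p = 0.00255). Its neighbour Ugt3a2, on chromosome 15 as well, averaged 13.16 ± 0.063 in the arrays labelled mutant and 13.08 ± 0.037 in those labelled control (SD, n = 4 each; difference 0.08, limma adjusted p = 0.376). A pair of probe sets naming Ugt3a1 and Ugt3a2 together differed by 0.19 and 0.21 (limma adjusted p = 0.0820 and 0.0620 over all 35556 probe sets, of which 4.44% passed).

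Ugt2b34, a glucuronosyltransferase gene on chromosome 5, read 9.81, 10.34, 10.74 and 10.42 in the arrays labelled mutant, against 9.61, 9.58, 9.58 and 9.44 in those labelled control. The groups did not overlap, with mutant array 1 nearest to the control arrays and mutant array 3 farthest. The gene was 1.71-fold higher (difference 0.77, SE 0.16, limma adjusted p = 0.0162), and without mutant arrays 3 and 4 together it did not pass (difference 0.52, limma adjusted p = 0.0514).

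Ugt2b38 had the highest positive difference of all 19936 genes in this fit and did not pass the test. It read 10.10, 9.11, 6.83 and 9.27 in the arrays labelled mutant, against 6.72, 7.01, 6.88 and 6.78 in those labelled control. Mutant arrays 1, 2 and 4 were high, and mutant array 3 lay inside the range of the control arrays. The difference was 1.98 with a standard error of 0.55 (3.94-fold, limma adjusted p = 0.0618). Ugt2b38 passed under 3 of 18 alternative settings. They were array weights (difference 1.91, limma adjusted p = 0.0466), leaving out mutant array 3 (2.65) and leaving out mutant array 4 as well (2.76). Leaving out mutant array 3 removes the array at the control level, so those passes follow from the choice. With trended and robust variance it was farther from passing (limma adjusted p = 0.156). Without mutant arrays 1 and 2 the difference was 1.20 (limma adjusted p = 0.303).

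Ugt2b37 was high on a single array. It read 9.88, 7.30, 7.31 and 7.27 in the arrays labelled mutant, against 7.15, 7.12, 7.04 and 7.07 in those labelled control. Mutant array 1 exceeded the lowest mutant array 6.13-fold, while the other 3 mutant arrays lay close together, just above the control arrays. The difference of 0.85 had a standard error of 0.51 (limma adjusted p = 0.367), and it was 0.20 without mutant array 1 (limma adjusted p = 0.0666).

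The promoters of Ugt2b37 and Ugt2b38 are shown because these close relatives on chromosome 5 had the widest spread of the 46 genes and were high on different sets of arrays. The sequences run from 250 bases before to 50 after the annotated RefSeq start. Capitals mark the 27 bases of each that had no identical partner when the pair was aligned end to end, a part of them at the ends of the windows, whose starts are shifted against each other.
Ugt2b37 promoter (GRCm38.p6, chr5:87254739-87255038, minus strand): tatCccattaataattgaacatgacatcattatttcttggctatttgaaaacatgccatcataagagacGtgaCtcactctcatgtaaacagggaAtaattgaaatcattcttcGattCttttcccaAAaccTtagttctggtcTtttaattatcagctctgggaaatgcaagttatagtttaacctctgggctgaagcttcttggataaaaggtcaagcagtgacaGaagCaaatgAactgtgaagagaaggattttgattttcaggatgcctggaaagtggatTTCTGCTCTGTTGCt
Ugt2b38 promoter (GRCm38.p6, chr5:87424154-87424453, minus strand): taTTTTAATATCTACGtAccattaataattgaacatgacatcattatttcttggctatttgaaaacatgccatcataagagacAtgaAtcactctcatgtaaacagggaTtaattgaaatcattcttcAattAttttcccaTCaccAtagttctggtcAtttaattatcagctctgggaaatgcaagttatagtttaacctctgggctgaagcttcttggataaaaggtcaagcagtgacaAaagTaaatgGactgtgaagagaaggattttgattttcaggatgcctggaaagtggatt
The pair shared 273 of 314 aligned positions (86.9%). Ugt2b5, the next most similar, matched Ugt2b38 at 84.2% and Ugt2b37 at 76.2%, and the promoters of Ugt2b34 and Ugt2b38 matched at 47.5%. How far the array's probes distinguish transcripts of such close relatives is not given in the sources used here, so each value is that of the probe set the platform assigns to the gene.

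The other UGT2 genes did not pass the test. Ugt2b36 averaged 5.43 ± 0.15 in the arrays labelled mutant and 4.92 ± 0.31 in those labelled control (SD, n = 4 each), with no overlap of the groups (difference 0.51, limma adjusted p = 0.0567), and passed once the replicate number was blocked (0.00913). It also passed without control array 4, and with the trended and robust variance. Ugt2b5 read 6.29, 5.87, 5.56 and 5.77 against 5.44, 5.35, 5.68 and 5.61, with mutant array 1 the highest and mutant array 3 inside the control range (difference 0.35, limma adjusted p = 0.178). Ugt2b1, Ugt2b35 and Ugt2a3 differed by -0.08, 0.05 and 0.11. On all 8 arrays these 3 and Ugt2b36 read under that array's lower quartile (6.21 to 6.28), where differences can be compressed.

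All 8 measured Ugt2 genes lie in a cluster on chromosome 5 with Sult1b1, Sult1d1 and Sult1e1, in that annotated order after Ugt2b38. The cluster holds 13 annotated protein-coding genes, of which 11 were measured singly. The 10 protein-coding genes on each side of it, 20 in all, were all measured. Their range over the arrays labelled mutant had a median of 0.26 and reached 0.48 at Csn1s2b. In the cluster Ugt2b37, Ugt2b38, Ugt2b34, Sult1b1 and Ugt2b5 spread more widely than that, and the other measured genes did not. All flanking genes but Uba6, Ythdc1 and Prr27 read under the lower quartile on every array, where differences can be compressed. Their small ranges therefore cannot show where the spread ends.

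**Figure D2:**
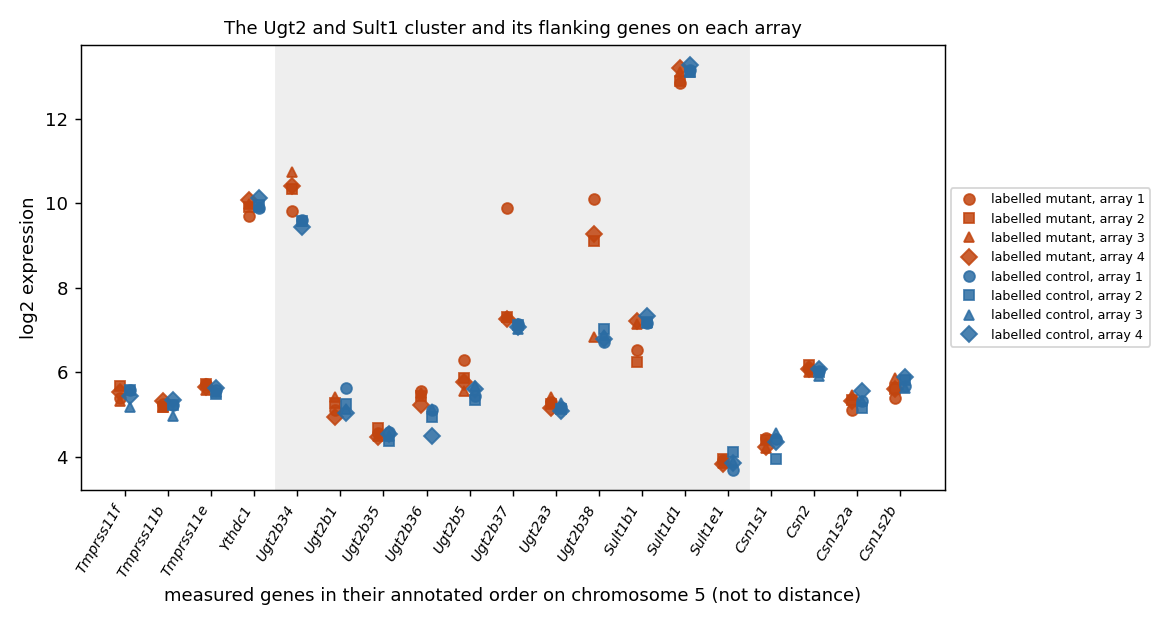
Log2 expression on each of the 8 arrays for the measured genes of the Ugt2 and Sult1 cluster (grey) and 4 flanking genes on each side, in chromosomal order. Ugt2b37 is high on mutant array 1 (9.88), Ugt2b38 on mutant arrays 1, 2 and 4 (9.11 to 10.10), and Sult1b1 is low on mutant arrays 1 and 2 (6.54 and 6.24).

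Among the GST genes 5 rose and 1 fell. Gsta3, an alpha-class enzyme that in mice inactivates the epoxide of aflatoxin, read 9.94, 10.24, 10.61 and 10.43 in the arrays labelled mutant, against 9.39, 9.42, 9.50 and 9.86 in those labelled control. The groups did not overlap, though mutant array 1 and control array 4 lay close to each other. Gsta3 was 1.70-fold higher (difference 0.76, SE 0.15, limma adjusted p = 0.0120), and it did not pass without mutant arrays 3 and 4 together (difference 0.55, limma adjusted p = 0.0554). Gsta4, whose enzyme prefers the lipid peroxidation product 4-hydroxynonenal, averaged 10.59 ± 0.10 against 10.50 ± 0.11 (SD, n = 4 each; difference 0.09, limma adjusted p = 0.479). The 4 probe sets naming Gsta1 and Gsta2 with a pair of related predicted genes each differed by 0.43 and did not pass (limma adjusted p = 0.185 to 0.227 over all probe sets).

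The promoters of Gsta3 and Ugt3a1 are shown as examples from the 6 genes that rose without overlap of the groups, and were picked after their values were seen. Of the other 4, Gstm1 held ACGTG and GCGTG in its promoters, and the promoters found for Ugt2b34, Gstt3 and Gstm3 held none of the motifs below. In capitals are matches to 4 motifs searched on both strands, which do not overlap in this pair. They are the antioxidant response element core TGACNNNGC, the hypoxia response core ACGTG, the dioxin response core GCGTG and GTTAAT. The last is only a part of the longer HNF1 motif.
Gsta3 promoter (GRCm38.p6, chr1:21240335-21240634, plus strand): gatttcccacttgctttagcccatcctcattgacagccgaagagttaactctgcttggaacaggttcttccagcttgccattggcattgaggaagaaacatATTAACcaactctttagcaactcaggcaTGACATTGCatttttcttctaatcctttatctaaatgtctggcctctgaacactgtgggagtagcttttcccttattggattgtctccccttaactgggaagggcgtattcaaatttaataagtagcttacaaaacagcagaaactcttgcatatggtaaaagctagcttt
Ugt3a1 promoter (GRCm38.p6, chr15:9279579-9279878, plus strand): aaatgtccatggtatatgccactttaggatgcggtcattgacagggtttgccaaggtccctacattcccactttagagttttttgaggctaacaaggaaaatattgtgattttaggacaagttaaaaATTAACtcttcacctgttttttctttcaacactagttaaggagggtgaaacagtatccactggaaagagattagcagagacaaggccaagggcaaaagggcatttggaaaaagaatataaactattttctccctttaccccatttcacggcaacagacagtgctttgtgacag
Gsta3 held TGACATTGC, at position -121 from the annotated start, and ATTAAC, the reverse complement of GTTAAT, at position -149. Ugt3a1 held ATTAAC at position -123. RefSeq promoters were found for 42 of the 46 genes, 54 windows in all; TGACNNNGC was in 3 of them and in 12.4% of the 32851 mouse promoters searched, ACGTG in 7 and 19.6%, GCGTG in 10 and 32.4%, and GTTAAT in 8 and 7.10%. These matches describe letters and not binding.

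Gstt3, a theta-class enzyme gene, was 1.25-fold higher. It read 10.05, 10.20, 10.04 and 10.05 in the arrays labelled mutant, against 9.77, 9.75, 9.81 and 9.75 in those labelled control (difference 0.32, SE 0.054, limma adjusted p = 0.00671). Mutant array 2 stood above the other 3, and no mutant array overlapped a control array. Its neighbours on chromosome 10, Gstt1, Gstt2 and Gstt4, differed by 0.15, 0.03 and 0.07 and did not pass (limma adjusted p = 0.434, 0.900 and 0.616).

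Gstm1, the mu-class enzyme gene whose human counterpart is often deleted, read 12.32, 12.36, 12.41 and 12.44 in the arrays labelled mutant, against 12.15, 12.06, 12.20 and 12.16 in those labelled control. The groups did not overlap (1.18-fold higher, difference 0.24, limma adjusted p = 0.0245). It no longer passed when mutant array 2, 3 or 4 or control array 1 or 2 was left out (limma adjusted p between 0.0562 and 0.0752). Gstm3 read 9.83, 9.87, 9.91 and 9.88 against 9.68, 9.58, 9.64 and 9.71, again without overlap (difference 0.22, limma adjusted p = 0.0258). Its second probe set averaged 7.21 ± 0.16 in the arrays labelled mutant and 7.16 ± 0.18 in those labelled control (SD, n = 4 each) and differed by 0.05. Gstm3 did not pass with that probe set (limma adjusted p = 0.820), with the mean of both (0.286), or when any 1 of mutant arrays 2 to 4 or control arrays 1 to 3 was left out (0.0558 to 0.0808).

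Of the 7 GST mu genes 2 rose and 5 did not pass. Gstm2 read 10.24, 10.44, 10.76 and 10.81 in the arrays labelled mutant, against 10.08, 10.22, 10.43 and 10.23 in those labelled control. Mutant arrays 3 and 4 were high and mutant array 1 lay inside the control range (difference 0.32, limma adjusted p = 0.178). Of 18 alternative settings Gstm2 passed under 2, without mutant array 1 (difference 0.43) and without mutant arrays 1 and 2 (0.55). Both keep the arrays on which it was high. Gstm7 read 9.14, 9.70, 9.87 and 9.78, against 9.54, 9.63, 9.71 and 9.63, with mutant array 1 alone below the control arrays (difference -0.01). Gstm4, Gstm5 and Gstm6 differed by 0.20, 0.05 and 0.06. All 7 lie on chromosome 3.

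Gstk1, the kappa-class enzyme of mitochondria and peroxisomes, read 11.78, 12.07, 12.13 and 12.09 in the arrays labelled mutant, against 11.67, 11.66, 11.69 and 11.80 in those labelled control. Mutant array 1 lay inside the control range and the other 3 above it (1.24-fold higher, difference 0.31, limma adjusted p = 0.0446). Leaving out mutant array 2, 3 or 4 or control array 1, 2 or 3 ended the call (limma adjusted p between 0.0980 and 0.121). Gstz1, whose enzyme isomerises maleylacetoacetate in tyrosine breakdown, read 10.59, 10.87, 10.92 and 10.88 against 10.78, 10.75, 10.66 and 10.56, and mutant array 1 was again the lowest of its group (difference 0.13, limma adjusted p = 0.396).

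Gsto1, an omega-class enzyme that reduces dehydroascorbate, was the member that fell. It read 9.79, 9.94, 10.06 and 10.14 in the arrays labelled mutant, against 10.43, 10.30, 10.30 and 10.31 in those labelled control. Every mutant array lay below every control array, and the gene fell by 0.35 on the log2 scale (1.28-fold lower, SE 0.078, limma adjusted p = 0.0238). With the replicate block it did not pass (limma adjusted p = 0.0518), nor when mutant array 2 or control array 1, 2 or 3 was left out (0.0557 to 0.0727). Gsto2, its neighbour on chromosome 19, differed by 0.18 in the opposite direction and did not pass (limma adjusted p = 0.207).

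**Figure D3:**
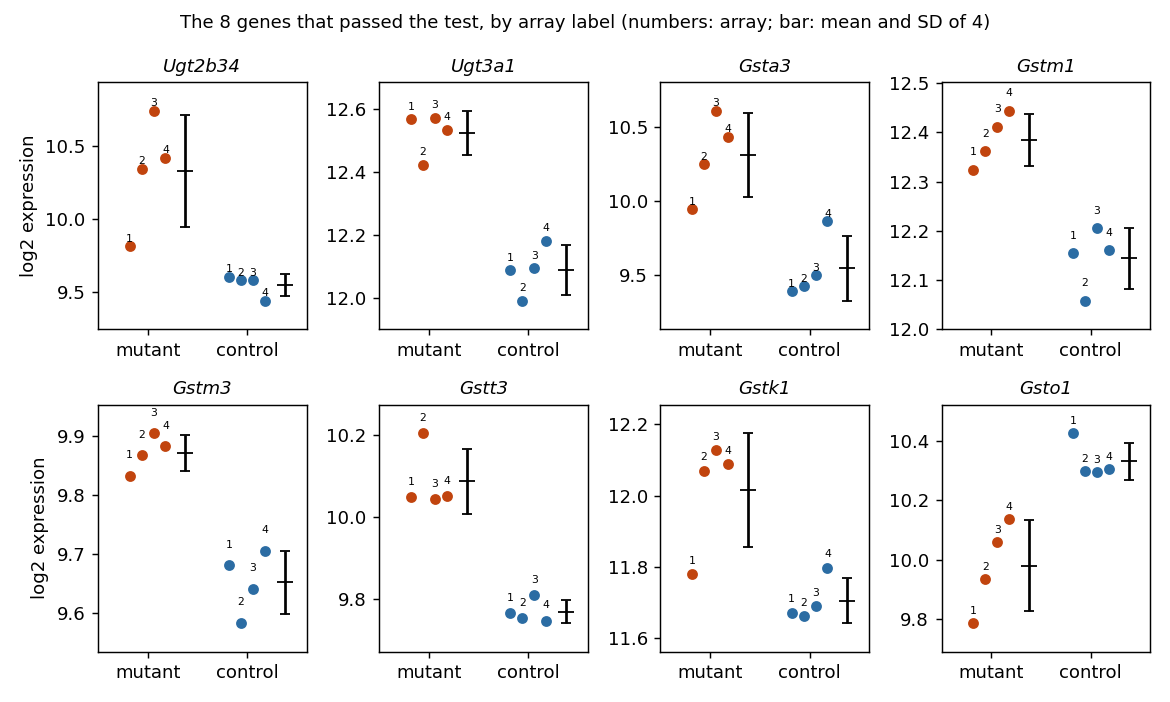
Log2 expression on each array of the 8 genes that passed the test, with the array number beside each point and the mean and SD of the 4 arrays at the right of each group; axes differ between panels and do not start at 0. Gsto1 is the gene below its control arrays, and Gstk1 the gene whose groups overlap, at mutant array 1 (11.78).

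The pi-class genes did not pass. Gstp1 averaged 11.43 ± 0.037 in the arrays labelled mutant and 11.31 ± 0.049 in those labelled control (SD, n = 4 each), without overlap of the groups (difference 0.12, limma adjusted p = 0.199). Gstp3 read 6.65, 6.79, 6.51 and 6.59 against 6.50, 6.50, 6.50 and 6.53 (difference 0.13, limma adjusted p = 0.268). Gstcd, which carries the name of a GST domain only, differed by -0.05. In all 46 genes, every mutant array exceeded every control array for 9 (6.57% of all genes did so) and lay under every control array for 1 (8.20%).

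No SULT gene passed limma's test, and at an unadjusted p under 0.05 there were 0 higher and 1 lower of the 16, where 10.8% and 11.0% of all genes were so. That gene was Sult1b1, whose enzyme sulfates phenols and thyroid hormones. It read 6.54, 6.24, 7.14 and 7.20 in the arrays labelled mutant, against 7.17, 7.19, 7.17 and 7.33 in those labelled control. Mutant arrays 1 and 2 were low, and mutant arrays 3 and 4 lay at the control level (difference -0.44, SE 0.19, limma adjusted p = 0.219). The difference was -0.83 without mutant arrays 3 and 4 (limma adjusted p = 0.00441) and -0.04 without mutant arrays 1 and 2 (0.842).

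Sult1d1, the next gene along the chromosome, which in mice sulfates catecholamines, read 12.86, 12.89, 13.12 and 13.19 in the arrays labelled mutant, against 13.15, 13.12, 13.11 and 13.28 in those labelled control. The same arrays, mutant 1 and 2, were below the control range (difference -0.15, limma adjusted p = 0.343). Sult1a1, a phenol sulfotransferase gene, spread from 8.24 on mutant array 1 to 9.05 on mutant array 4, around control arrays of 8.59 to 8.86 (difference -0.02). Sult1c2 averaged 11.56 ± 0.20 in the arrays labelled mutant and 11.34 ± 0.17 in those labelled control (SD, n = 4 each; difference 0.22, limma adjusted p = 0.273).

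For 9 of the 16 SULT genes every array read under its own lower quartile. They include Sult1c1, the oestrogen sulfotransferase gene Sult1e1, and the hydroxysteroid sulfotransferase genes Sult2a3, Sult2a6 and Sult2a8. Sult2a3 read 4.21, 4.64, 4.18 and 3.64 against 4.07, 4.19, 3.93 and 3.94 (difference 0.13, limma adjusted p = 0.687), and its spread lies at a level where the array resolves little. Sult3a2 read 3.11, 3.03, 3.10 and 2.92 in the arrays labelled mutant, against 2.85, 3.09, 2.85 and 2.84 in those labelled control, where array 2 alone was high (difference 0.13, limma adjusted p = 0.324). Sult2b1, whose enzyme sulfates cholesterol and pregnenolone, averaged 7.01 ± 0.11 against 6.88 ± 0.067 (SD, n = 4 each; difference 0.13, limma adjusted p = 0.305). Sult4a1, known from brain, read 6.81, 6.75, 6.62 and 6.81 in the arrays labelled mutant, against 6.79, 6.80, 6.81 and 6.61 in those labelled control, and the groups overlapped throughout (difference -0.004). Sult5a1, Sult6b1, Sult6b2 and Sult3a1 differed by 0.04, 0.03, -0.02 and -0.002.

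Within a group, the highest and lowest array differed at least 2-fold (a range of 1 on the log2 scale) for 3 genes in the arrays labelled mutant, Ugt2b37, Ugt2b38 and Sult2a3, and for 0 in those labelled control. Among all genes 0.873% did so in the arrays labelled mutant and 0.552% in those labelled control. By its range of 3.28 Ugt2b38 ranked 11 of 19936 genes in the arrays labelled mutant, and by its range of 2.62 Ugt2b37 ranked 17. The range was wider in the arrays labelled mutant for 29 of the 46 genes (63.0%), against 56.1% of all genes. A lone array stood apart from the other 3 of its group by Dixon's test for 4 of the 46 genes in the arrays labelled mutant and for 5 in those labelled control, where 4.63% and 5.51% of all genes did so.

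**Figure D4:**
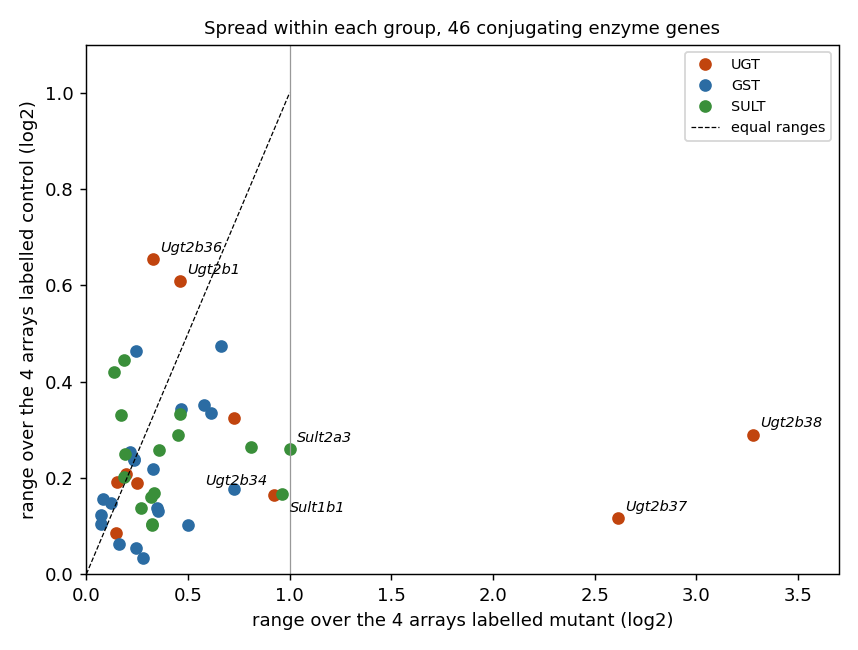
Range (highest minus lowest array, log2 units) of each of the 46 genes over the 4 arrays labelled mutant (horizontal) and the 4 labelled control (vertical); the dashed line marks equal ranges and the grey line a range of 1. Ugt2b37 (2.62) and Ugt2b38 (3.28) lie far to the right with control ranges of 0.12 and 0.29.

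Within the arrays labelled mutant, 9 of the 46 genes (19.6%) were lowest on array 1 and highest on array 3, against 10.5% of all genes. They were Ugt2b34 and 8 GST genes (Gsta3, Gsta4, Gstk1, Gstm3, Gstm4, Gstm6, Gstm7 and Gstz1). The opposite order, lowest on array 3 and highest on array 1, held for 4 of the 46 genes (8.7%), among them Ugt2b38 and Ugt2b5, against 12.6% of all genes. These orders were picked from all pairs of lowest and highest array after the values were seen. Genes of a family can vary together, so the members are not independent. Gstm3 and Gsta4 spread little over the arrays labelled mutant (ranges 0.072 and 0.217), so their order says little. The mean of 5 hepatocyte genes (Alb, Apoa1, Apoa2, Fgb and Ttr) was 7.89, 8.64, 9.43 and 9.04 on the arrays labelled mutant, against 8.80 to 9.06 on those labelled control; 0 of the 5 passed limma's test and 0 had an unadjusted p under 0.05. Alb varied most, at 7.67, 9.70, 11.42 and 10.11 on the arrays labelled mutant, while Fgb and Ttr were highest on mutant array 4. The mean of 6 immune markers was 7.78, 7.79, 7.28 and 7.31 on the arrays labelled mutant, against 7.58 to 7.81 on those labelled control, high on the mutant arrays where Sult1b1 was low; 0 of the 6 passed limma's test and 1 had an unadjusted p under 0.05, lower. With the replicate block Cd68 passed as lower (difference -0.24, limma adjusted p = 0.0334, and 0.143 without the block). The part of these in the spread was not tested.

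Beside the marker counts below, 2.59% of all genes rose and 4.64% fell in limma's test. The proximal tubule, where many conjugating enzymes act, was read by 12 marker genes. Of these 4 rose, namely Slc22a7, Slc6a19, Aqp1 and Slc22a8, and 0 fell (median 0.22). Their mean ran from 11.97 to 12.24 on the arrays labelled mutant, against 11.65 to 11.92 on those labelled control. Of 6 thick ascending limb and distal tubule markers 2 rose, Calb1 and Cldn16, all 6 had a positive difference (median 0.25), and Slc12a1 and Slc12a3 passed as well with the replicate block (limma adjusted p = 0.0456 and 0.0341). Of 6 collecting duct markers Aqp3 rose (1.36-fold), while 3 of the 6 had a positive and 3 a negative difference (median 0.01). Of 3 podocyte markers Podxl fell (1.22-fold), while Nphs1 and Wt1 differed by 0.17 and 0.10 and did not pass (median 0.10). All 6 endothelial markers and all 4 proliferation markers fell (medians -0.73 and -0.77). The endothelial mean was 9.90 to 10.02 on the arrays labelled mutant, against 10.62 to 10.81 on those labelled control, and the proliferation mean 7.05 to 7.73 against 7.92 to 8.29. In whole-kidney RNA a change in the number of cells of a type and a change in RNA per cell cannot be told apart, and the part of cell makeup in the rises above was not tested. Adrenal cortex, pancreas and adipocyte markers had 0 calls among 7, 3 and 4 measured genes in limma's test, and 1, 1 and 0 of them had an unadjusted p under 0.05. With the replicate block the pancreas marker Ins2 passed as higher (difference 0.24, limma adjusted p = 0.0395, and 0.133 without the block).

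The genes that supply the conjugation reactions were read from lists of the surrounding pathways. Over all genes 7.23% passed, 2.59% as higher and 4.64% as lower. The share that passed was 26.7% for sulfate, 26.7% for the other conjugating enzymes, 16.7% for transporters and 18.8% for xenobiotic regulators. In the list of mercapturate formation and microsomal transferases it was 21.4%. The genes that passed there were Mgst3, Ptges and Faah, and the Nat8 and Acy genes of that list did not pass in the main test. For glutathione and UDP-glucuronate it was 11.1% each, which in lists of 18 and 9 genes is near the share of all genes. For sulfate, 4 of 15 genes rose and 0 fell (median 0.15). Slc26a1, a sulfate anion exchanger, averaged 10.26 ± 0.021 in the arrays labelled mutant and 9.78 ± 0.063 in those labelled control (SD, n = 4 each; 1.39-fold higher, limma adjusted p = 0.000617). The other 3 were Suox, sulfite oxidase (1.31-fold), and the anion exchanger genes Slc26a6 (1.22-fold) and Slc26a2 (1.22-fold). The PAPS synthase genes Papss1 and Papss2 differed by 0.17 and 0.15 and did not pass.

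For glutathione 2 of 18 genes rose and 0 fell (median 0.11). Dpep1, the dipeptidase that cleaves cysteinylglycine, averaged 11.01 ± 0.22 against 10.61 ± 0.062 (SD, n = 4 each; 1.32-fold higher, limma adjusted p = 0.0350), and the cystine transporter gene Slc7a9 was 1.23-fold higher. The glutathione synthesis genes Gclc, Gclm and Gss differed by 0.14, 0.16 and 0.12 and did not pass. Among 14 genes listed with mercapturate formation and the microsomal transferases, Mgst3 rose 1.21-fold. Ptges, prostaglandin E synthase, fell by 0.64 on the log2 scale. Faah, a fatty acid amide hydrolase that belongs to neither group, fell by 0.38. Nat8f5 had the largest difference of these 14 genes, at 11.28, 11.47, 10.54 and 11.24 in the arrays labelled mutant, against 10.18, 10.93, 8.98 and 10.26 in those labelled control. Its groups overlapped (difference 1.05, limma adjusted p = 0.119), and it passed with the replicate block (0.00998). The list of 9 genes around UDP-glucuronate also holds genes of other sugars and of glycolipids. In it 1 gene fell, Slc35a3 (1.25-fold lower), which encodes a transporter of another nucleotide sugar. Ugdh, the enzyme that makes UDP-glucuronate, differed by 0.09, and Ugp2 and Slc35d1 by -0.004 and 0.17, and these did not pass.

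Of 15 other conjugating and detoxifying enzymes 3 rose and 1 fell (median 0.16). Acsm2 and Acsm5, acyl-CoA synthetase genes of glycine conjugation, rose 1.42-fold and 1.37-fold, Baat, which conjugates bile acids, rose 1.29-fold, and Ephx1, microsomal epoxide hydrolase, fell 1.46-fold. Of 12 transporters of conjugates Abcc6 and Slc22a8 rose (1.28-fold and 1.23-fold) and 0 fell. Among 16 xenobiotic regulators and targets 0 rose and 3 fell, namely Ahr, the dioxin receptor (1.20-fold lower), Keap1, the inhibitor of NRF2 (1.21-fold), and Hmox1, haem oxygenase 1 and a gene that HIF also induces (2.32-fold). Nfe2l2, which encodes NRF2, and its targets Nqo1, Txnrd1 and Srxn1 differed by -0.02, 0.17, 0.05 and 0.13 and did not pass. With the replicate block Slc26a2, Ephx1 and Ahr did not pass (limma adjusted p = 0.0794, 0.0653 and 0.0726).

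The shared probe set of 8 Ugt1a genes, which cannot be assigned to any 1 of them, read 11.18, 11.45, 11.66 and 11.66 in the arrays labelled mutant, against 11.05, 11.27, 11.43 and 11.49 in those labelled control. The groups overlapped (difference 0.17, 95% interval -0.13 to 0.48, limma adjusted p = 0.533 over all probe sets). None of the 12 probe sets naming several genes of the families passed in that limma fit, in which 6 of them, the 4 for Gsta1 and Gsta2 and the pair for Ugt3a1 and Ugt3a2, had a 95% interval above 0. That fit is stricter than the one over genes. Of the genes called above, Gstk1 did not pass in it (limma adjusted p = 0.081). Gsto1, Gstm1 and Gstm3 passed narrowly (0.0484, 0.0435 and 0.0432), and the other called genes passed as well.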

How the data were processed

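The authors deposited log2 expression values of 35556 probe sets on 8 arrays. Per the submitters' processing notes limma was used, with no version; background correction, summarization, normalization and genome build are not given in the sources used here. Per the labels' protocols RNA was prepared with TRIzol and RNeasy. The arrays hold 1 mouse each, 4 per group.

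Probe set names follow GEO's platform annotation, brought up to date by gene ID and accession against RefSeq (GRCm38.p6), which also gave promoters and gene order; no files give a build, so no coordinates of probe sets are printed. Of the probe sets 21789 named 1 gene (21701 matched, 88 kept the platform symbol), 1621 several, and 12146 were not listed. A gene with several probe sets was read from the brightest on average. The two-sided test was limma 3.58.1 (lmFit, eBayes; R 4.3.3) on group alone. The fits were tested on simulated data. Same-numbered arrays of both groups deviated together (correlations 0.138, 0.153, 0.295 and 0.175). Between arrays of different numbers the correlations ran from -0.193 to 0.111. Pairing by number comes from the data and not the labels, and the main test does not use it. Every limma p given without mention of the block is therefore from an unpaired fit. The replicate block treats same numbers as pairs, and its results are given where a call of a gene described changes.

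Members, lists and tests were chosen with earlier results of these data known. Every array's value is given for members that passed, had a range of at least 1 within a group or a lone outlying array, or had the largest difference of their class; from each pathway list the members that passed are named, and other genes named were chosen after their values were seen. Alternatives were quantile normalization, median centring, the upper 60% of probe sets by mean, trended and robust variance, array weights, the replicate block, other choices of probe set, a threshold of 0.01, and leaving out arrays. The fit over all probe sets was added after the data were seen.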

Additional observations from a re-analysis of the deposited data

Results flagged for a closer look

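In groups of 4 arrays, an array was taken to stand apart when its gap to the nearest other array exceeded Dixon's 95% critical share of the group's range. Of 92 groups (46 genes, each in the arrays labelled mutant and in those labelled control) 9 met this, or 9.78%, where chance gives about 1 in 20. Over all genes the share was 4.63% in the arrays labelled mutant and 5.51% in those labelled control.

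The widest was Ugt2b37, at 9.88 on mutant array 1 with the other mutant arrays at 7.27 to 7.31. Gstk1 (11.78, others 12.07 to 12.13) and Gstz1 (10.59, others 10.87 to 10.92) were low on the same array, and Gstt3 was high on mutant array 2 (10.20, others 10.04 to 10.05).

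Control array 4 was low for Ugt2b34 (9.44) and Sult4a1 (6.61) and high for Sult1b1 (7.33). Gsto1 was high on control array 1 (10.43) and Sult3a2 on control array 2 (3.09).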

How the results depend on the processing

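Of the 8 called genes, Gstt3 and Ugt3a1 passed limma's test under all 18 alternatives, and Gsta3 and Ugt2b34 under 17. The count of genes higher in the arrays labelled mutant, 7, was 4 without mutant arrays 3 and 4 and 2 at an adjusted p under 0.01. The count lower, 1, was 0 with the replicate block, at 0.01 and with mutant arrays 1 and 2 left out, and 3 with mutant arrays 3 and 4 left out (Gsto1, Sult1b1 and Sult1d1). Sult1b1 and Sult1d1 were low on mutant arrays 1 and 2, which that subset keeps. Leaving out 1 array at a time gave 4 to 9 higher and 0 to 1 lower, and 902 to 1368 of all genes called, against 1442; the UGT median ran from 0.21 to 0.44, the GST median from 0.10 to 0.17 and the SULT median from -0.020 to 0.047. The UGT median of 0.39 was 0.77 in the upper 60% of probe sets by mean, which tests fewer genes, and 0.17 without mutant arrays 1 and 2. The SULT median of 0.00 was -0.039 when mutant arrays 1 and 2 were left out and 0.062 for mutant arrays 3 and 4; the cause was not tested. Directions turned for genes that were not called: Sult2a3 was -0.12 with mutant arrays 1 and 2 left out and ran from -0.024 to 0.31 with single arrays left out, and Sult4a1 was 0.028 with mutant arrays 3 and 4 left out and ran from -0.052 to 0.037. The replicate block ended the call of Gsto1 (limma adjusted p = 0.0518), added Ugt2b36 and changed no other call among the 46 genes. Quantile normalization left the same 8 genes called, while over all genes the share of calls that were higher was 44.3%, against 35.9%.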
